A study of Mus musculus with 10 samples.

Results

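C1qtnf9, C1qtnf6, Adipor1, Adipor2 and Cdh13, 2 adiponectin-like ligand genes and the 3 genes for adiponectin receptors and binding proteins, were followed through the endothelial cells (ECs) of mouse long bones. They are 5 of the 22553 genes that were counted in at least 3 cells, and they were taken by name in all 10 libraries, in cells with 500 to 6000 detected genes and under 25% mitochondrial UMIs. A UMI is a molecular identifier that counts each captured RNA molecule once. The filter kept 46283 of 47466 cells, and 43814 of the kept cells fell into endothelial classes.

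Single-cell RNA was sequenced from ECs of femur and tibia of C57BL/6 mice that carry the Cdh5-mTnG reporter, in which the promoter of Cdh5, the gene for VE-cadherin, drives nuclear GFP and membrane tdTomato. All 10 libraries carry this reporter and were lineage-depleted and sorted for it, after muscle and the epiphyses had been removed, so that ECs of the epiphysis are not represented. Of the 5 groups of 2 libraries each, the juvenile group was 3 weeks old and pooled males and females. The other 4 groups were female: adult at 12 weeks, aged at 75 weeks, and 12 week old mice that had received either parathyroid hormone (PTH), given to build bone, or alendronate, a bisphosphonate that slows bone resorption. Animals were pooled and each experiment was done once per group. The sources used here do not say whether the 2 libraries of a group hold separate animals, so the p-values below measure the spread between libraries, which may be technical and may hold no spread between animals. The 4 groups were all compared with the same 2 adult libraries, and their effects are therefore not independent of each other.

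Adiponectin is a hormone secreted by fat cells that is built from a collagen-like stalk and a C1q-like head. C1qtnf9 and C1qtnf6 encode the related secreted proteins CTRP9 and CTRP6, members of the C1q/TNF family. Adipor1 and Adipor2 encode membrane-spanning receptors of the PAQR family, which relay adiponectin signals through the adaptor APPL1, AMP-activated protein kinase (AMPK) and fatty acid oxidation, and CTRP9 has been described as acting through Adipor1 in blood vessels. Cdh13 encodes T-cadherin, a cadherin without a cytoplasmic tail that is held in the membrane by a lipid anchor and that binds multimeric adiponectin on ECs and muscle cells.

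On the mm10 build C1qtnf9 lies on the forward strand of chromosome 14 from 60768134 to 60780869 and C1qtnf6 on the reverse strand of chromosome 15 from 78523346 to 78531416. Adipor1 lies on the forward strand of chromosome 1 from 134415378 to 134433351, Adipor2 on the reverse strand of chromosome 6 from 119353150 to 119417704, and Cdh13 on the forward strand of chromosome 8 from 118283733 to 119324921. C1qtnf6 shares 117 exonic bases with Gm49490 on the opposite strand, and reads over them cannot be told apart since the strand setting of the counting is not given in the sources used here. Stretches upstream of a RefSeq transcription start are shown for C1qtnf9 and C1qtnf6, the ligand genes, whose levels differed between EC classes and ages. Of the 5 genes 4 had an entry, and Cdh13 had none. They come from RefSeq (GRCm38.p6, 250 bases each, 5′ to 3′ on the gene's strand), C1qtnf9 at chr14:60767884-60768133 and C1qtnf6 at chr15:78529652-78529901. The C1qtnf9 window ends at the 5′ end of the gene as given above, while the C1qtnf6 window lies inside the gene span, before the start that most of its annotated transcripts use and within an intron of a longer transcript that begins further upstream. Capitals mark the E-box CANNTG, a motif bound by basic helix-loop-helix factors.
C1qtnf9: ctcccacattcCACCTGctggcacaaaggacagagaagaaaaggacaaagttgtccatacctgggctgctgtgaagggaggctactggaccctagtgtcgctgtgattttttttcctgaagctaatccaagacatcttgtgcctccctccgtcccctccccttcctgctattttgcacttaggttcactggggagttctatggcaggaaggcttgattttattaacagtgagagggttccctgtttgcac
C1qtnf6: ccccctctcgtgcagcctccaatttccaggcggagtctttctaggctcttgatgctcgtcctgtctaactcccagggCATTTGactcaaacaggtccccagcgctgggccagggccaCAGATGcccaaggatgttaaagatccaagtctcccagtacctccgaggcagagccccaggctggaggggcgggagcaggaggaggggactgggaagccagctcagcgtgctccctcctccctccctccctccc
The C1qtnf9 window held 1 E-box, 239 bases before the start, and the C1qtnf6 window held 2, at 173 and 133 bases before it, while the windows of Adipor1 and Adipor2 held none. An E-box was found in 66.22% of 32851 RefSeq mouse promoter windows searched on both strands, so its presence is common. None of the windows searched for these 4 genes held the GATA factor motif AGATAA, found in 9.99% of promoters, nor the SOX factor motif AACAAT (9.42%) or the TATA box TATAAA (12.37%).

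The libraries held 10653583 to 28419323 UMIs, with a median of 3075 to 5149 UMIs per kept cell. The aged libraries stood apart in several ways. They were counted with other gene names (2017 names occur only in the aged tables and 2031 are missing from them, none of them of the 5 genes), their median mitochondrial share was 2.31% and 2.42% against 1.15% to 1.43% elsewhere, and 51.4% of their sinusoidal ECs fell into 1 cluster that held 29.9% of the adult ones. The aged medians of 5149 and 5056 UMIs per kept cell lay above the 3075 to 4195 of the other libraries. Pairs with an aged library shared 1 to 4 cell barcodes and all other pairs 8 to 78. PTH library 1 kept fewer cells (2191) than the aged libraries (2473 and 2546) but shared more barcodes with other libraries. The reason was not tested.

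Cells were clustered without the 5 genes and classes were named from marker genes. Sinusoidal bone marrow ECs (bmEC-like, 19559 cells) carried Stab2 at 1742 UMIs per 1000000 UMIs of the class (CPM), metaphyseal ECs (mpEC-like, 11899 cells) Ramp3 at 462 CPM and Aplnr at 1162 CPM, and arterial ECs (aEC-like, 6966 cells) Gja4 at 1290 CPM. Type R ECs (rECs), which have been placed at sites of bone remodelling, fell into 2 classes. The Timp4/Aqp7 rEC-like class (2887 cells) carried Timp4 at 1206 CPM and Aqp7 at 571 CPM, against at most 41 CPM of either in any other class, and the Tagln/Vwf rEC-like class (1721 cells) carried Tagln at 1300 CPM and Vwf at 1183 CPM. Both rEC-like classes together made up 1.66% and 1.67% of juvenile ECs, 6.59% and 6.32% in the adult, 18.7% and 19.5% in the aged, 6.64% and 10.3% in the PTH and 17.6% and 18.4% in the alendronate libraries. Blood-like cells (1493 cells) were kept aside as cells that should lack endothelial transcripts.

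C1qtnf9 was concentrated in the rEC-like classes. Its level was 1112 ± 255 CPM (SD, n = 10 libraries) in Timp4/Aqp7 rEC-like cells and 603 ± 196 CPM in Tagln/Vwf rEC-like cells, against 40.0 ± 14.6 CPM in aEC-like, 10.3 ± 6.22 CPM in mpEC-like and 5.06 ± 3.53 CPM in bmEC-like cells. These levels are a description without a test, because C1qtnf9 is among the genes the study listed for these classes. With each cell thinned to 1000 UMIs, 60.7 ± 7.65% of Timp4/Aqp7 rEC-like cells and 40.2 ± 10.9% of Tagln/Vwf rEC-like cells held a C1qtnf9 UMI (79.7% of Timp4/Aqp7 rEC-like cells without thinning, at a median of 2003 UMIs). The thinned share was 4.16 ± 1.30% in aEC-like, 0.90 ± 0.50% in mpEC-like and 0.51 ± 0.33% in bmEC-like cells. It was 0.78 ± 0.60% in blood-like cells, which were sequenced to a median of 8501 UMIs. The bmEC-like share lay above that of the blood-like cells of its own library in 5 of 10 libraries and the mpEC-like share in 7, by at most 0.485 and 0.868 percentage points, and both are read as background. The aEC-like share lay above it in 10 of 10 libraries, by at least 1.55 percentage points. Thinning left out 327 Timp4/Aqp7 rEC-like cells with under 1000 UMIs, 53 Tagln/Vwf rEC-like, 284 aEC-like, 571 mpEC-like, 627 bmEC-like and 19 blood-like cells.

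**Figure D1:**
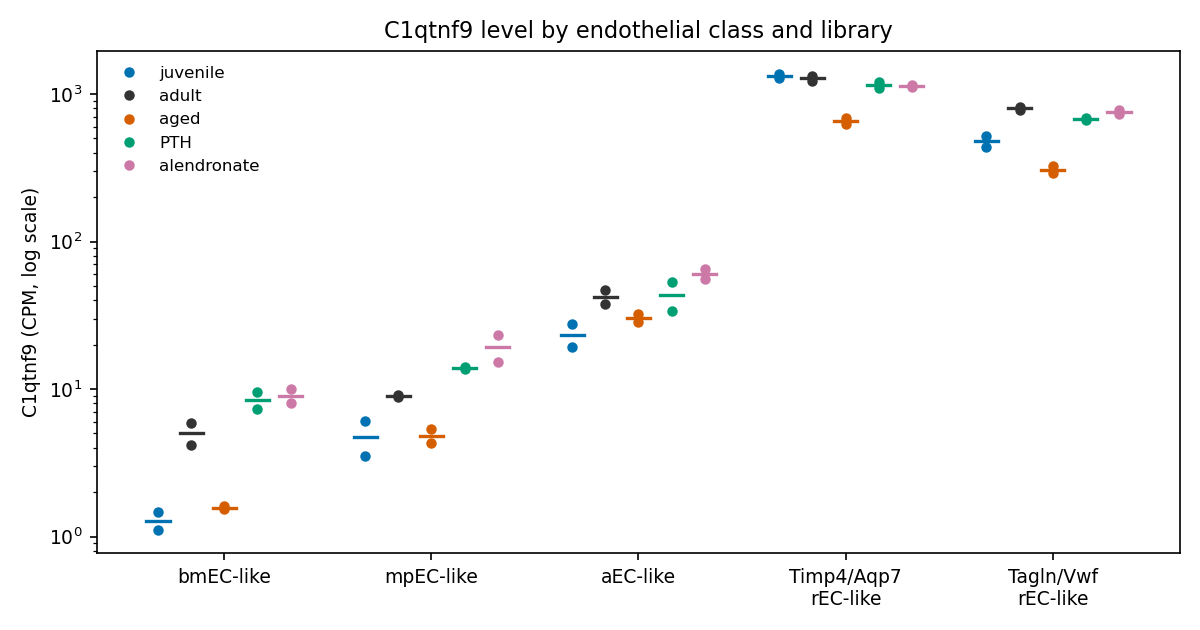
C1qtnf9 in CPM (logarithmic axis) for each EC class and library. Points are libraries and lines are group means; the Timp4/Aqp7 rEC-like class lies between 625 and 1376 CPM in every library, and the aged libraries are the lowest of both rEC-like classes.

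The groups were then compared with adult within each class, by edgeR's quasi-likelihood test with Benjamini-Hochberg adjustment over all genes. Counted over the 5 genes and 5 classes, 11 of 25 tests passed for juvenile (7 higher and 4 lower), 20 for aged (5 higher and 15 lower), 9 for PTH (8 higher and 1 lower) and 8 for alendronate (4 and 4). In the aged, Adipor1 was lower and Adipor2 higher in all 5 classes. The counts include calls at levels that are not read as expression, those of C1qtnf9 in bmEC-like and mpEC-like cells and of Cdh13 in bmEC-like cells, and calls that single libraries or the integration decide, as given for each gene below. The share of all genes that passed was high in the larger classes, and the counts are read against it. For juvenile it was 37.6% in bmEC-like, 28.8% in mpEC-like, 14.4% in aEC-like, 2.96% in Timp4/Aqp7 rEC-like and 1.64% in Tagln/Vwf rEC-like cells and 43% over all ECs, and pooled over the 5 classes it was 20%. For aged it was 66.4%, 65.9%, 58.4%, 47.2% and 29.5% in the same order, 73.7% over all ECs and 56.2% pooled, so that a call in an aged class is the common case. For PTH it was 9.54%, 16.7%, 7.2%, 2.37% and 0.71%, 29.6% over all ECs and 8.28% pooled. For alendronate it was 18%, 13%, 7.1%, 2.59% and 1.05%, 27.6% over all ECs and 9.65% pooled.

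In Timp4/Aqp7 rEC-like cells C1qtnf9 stood at 1291 and 1376 CPM in juvenile, 1225 and 1324 CPM in adult, 692 and 625 CPM in the aged, 1104 and 1211 CPM in the PTH and 1156 and 1118 CPM in the alendronate libraries. The aged pair lay below all other libraries, and the juvenile and adult pairs overlapped. The aged level was lower than the adult one by a log2 fold change of -0.94 (SE 0.099, adjusted p = 8.53e-13). The other 3 groups differed from adult by 0.06 (juvenile, adjusted p = 0.902), -0.11 (PTH, 0.751) and -0.16 (alendronate, 0.484) on the log2 scale, none of which passed the threshold.

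In Tagln/Vwf rEC-like cells the levels were 438 and 516 CPM in the juvenile, 821 and 779 CPM in the adult, 323 and 291 CPM in the aged, 665 and 686 CPM in the PTH and 778 and 728 CPM in the alendronate libraries. Here both the juvenile and the aged pair lay below the other 3 groups. C1qtnf9 was lower in aged than in adult cells (log2 fold change -1.37, SE 0.12, adjusted p = 4.3e-12), and the aged levels of 391, 185 and 263 CPM in the 3 clusters of the class stood below the adult levels of 842, 657 and 768 CPM. It was also lower in juvenile cells (-0.73, SE 0.17, adjusted p = 0.0102), a call that was lost without juvenile library 1, without integration (adjusted p = 0.373) and under stricter cell filters (0.125), and the juvenile libraries held only 21 and 31 such cells. The PTH and alendronate changes of -0.24 (adjusted p = 0.494) and -0.09 (0.868) did not pass.

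In aEC-like cells C1qtnf9 was at 27.4 and 19.3 CPM in the juvenile, 46.6 and 37.9 CPM in the adult, 28.5 and 32.5 CPM in the aged, 34.0 and 52.8 CPM in the PTH and 55.9 and 65.3 CPM in the alendronate libraries. It was lower than adult in juvenile (log2 fold change -0.87, SE 0.26, adjusted p = 0.0216) and aged cells (-0.47, SE 0.18, adjusted p = 0.0214) and higher under alendronate (0.52, SE 0.15, adjusted p = 0.0343). Each of these calls hung on single libraries. The juvenile one was lost without juvenile library 2 or adult library 1. It was also lost without the juvenile cells that held a UMI of a Y-linked gene (-0.65, adjusted p = 0.166). The aged one was lost without adult library 1 or aged library 1. The alendronate one was lost without any single one of adult library 1, adult library 2 and alendronate library 2. It was also lost with cells scored as doublets removed (0.37, adjusted p = 0.209). The tests also called C1qtnf9 in bmEC-like and mpEC-like cells in all 4 groups, lower in juvenile (-1.96 and -0.90) and aged (-1.66 and -0.89), higher under PTH (0.82 and 0.64) and alendronate (0.84 and 1.11). Of these, the mpEC-like calls were lost without juvenile library 2 or adult library 2 (juvenile), aged library 2 (aged), adult library 1, adult library 2 or PTH library 2 (PTH) and alendronate library 1 (alendronate), and the bmEC-like calls without adult library 1 or PTH library 2 (PTH) and adult library 1 or alendronate library 2 (alendronate). Since the shares there are close to those of blood-like cells, those values are not read as expression in bmEC-like or mpEC-like cells.

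Over all ECs C1qtnf9 was at 14.7 and 13.8 CPM in the juvenile, 56.4 and 57.7 CPM in the adult, 71.8 and 66.2 CPM in the aged, 66.0 and 90.8 CPM in the PTH and 153 and 152 CPM in the alendronate libraries. The alendronate pair was the highest and the juvenile pair the lowest, and both differed from adult (1.42, SE 0.078, adjusted p = 1.21e-11, and -1.9998, SE 0.11, adjusted p = 3.46e-12). PTH was also higher (0.52, SE 0.084, adjusted p = 5.36e-05), and without PTH library 2 by 0.21 only (adjusted p = 0.0377). The aged change over all ECs was 0.28 (SE 0.087, adjusted p = 0.00702) and so opposite in sign to the changes within both rEC-like classes, and it was lost without adult library 1 or aged library 1. The scaling between libraries weighed on this value, which was 0.62 without it. The 2 rEC-like classes supplied 72.6% (PTH library 1) to 88.7% (aged library 1) of the C1qtnf9 UMIs of all ECs, so that the level over all ECs moves with their share of cells as well as with the level per cell.

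**Figure D2:**
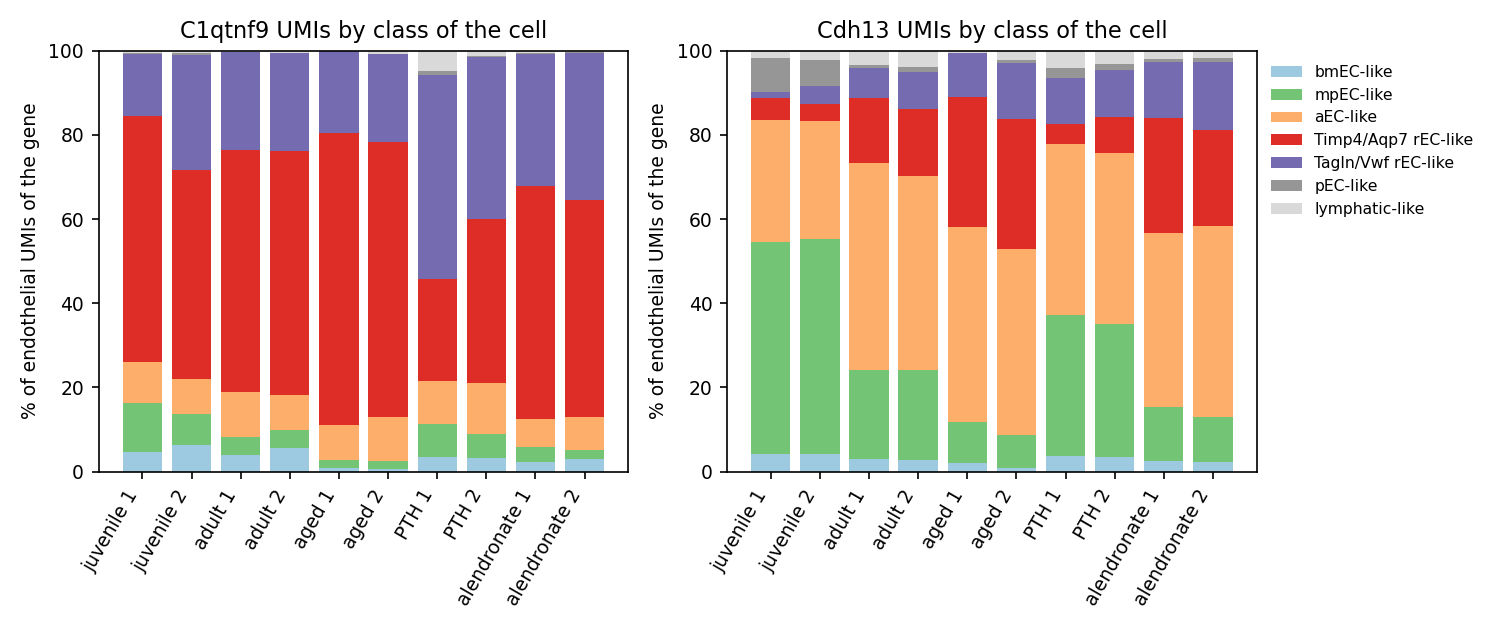
Percent of the endothelial UMIs of C1qtnf9 (left) and Cdh13 (right) that came from each EC class, as stacked bars, 1 per library. Timp4/Aqp7 and Tagln/Vwf rEC-like cells together carry 72.6% to 88.7% of C1qtnf9, whereas aEC-like cells carry the largest part of Cdh13 in the adult, aged, PTH and alendronate libraries and mpEC-like cells in the juvenile ones (50.4% and 51.0%).

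C1qtnf6 had the opposite distribution. Its levels were 61.2 ± 56.0 CPM (SD, n = 10) in bmEC-like and 62.6 ± 39.9 CPM in mpEC-like cells, against 21.5 ± 29.1 CPM in Timp4/Aqp7 rEC-like, 19.6 ± 17.3 CPM in Tagln/Vwf rEC-like and 17.9 ± 18.2 CPM in aEC-like cells, with a wide spread among the 10 values of each class. Each class was tested against the mean of the other classes, with library as a block. Here and below that mean also takes in proliferating ECs (pEC-like, 625 cells), whose levels are not listed. C1qtnf6 was higher in bmEC-like (log2 difference 1.12, SE 0.10, adjusted p = 1.92e-14) and mpEC-like cells (1.18, SE 0.11, adjusted p = 1.6e-14). It was lower in aEC-like (-1.27, SE 0.15, adjusted p = 1.38e-10), Timp4/Aqp7 rEC-like (-1.04, SE 0.24, adjusted p = 0.000191) and Tagln/Vwf rEC-like cells (-0.99, SE 0.23, adjusted p = 0.000425). Neighbours in this order did not pass the test of their difference, with adjusted p = 0.662 for bmEC-like against mpEC-like, 0.663 for aEC-like against Timp4/Aqp7 rEC-like and 0.956 for the 2 rEC-like classes. bmEC-like cells supplied 53.8% to 69.3% of the endothelial C1qtnf6 UMIs in the juvenile, adult and alendronate libraries. mpEC-like cells supplied more than bmEC-like cells under PTH (59.1% and 62.3% against 27.6% and 25.4%) and in aged library 2 (49.6% against 36.6%), but not in aged library 1 (43.3% against 47.0%).

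In sinusoidal and metaphyseal cells C1qtnf6 was high in juvenile and low in aged libraries. In bmEC-like cells its levels were 169 and 164 CPM in the juvenile, 38.3 and 40.3 CPM in the adult, 20.5 and 19.1 CPM in the aged, 41.6 and 37.3 CPM in the PTH and 41.0 and 41.4 CPM in the alendronate libraries. The juvenile pair lay above and the aged pair below all others, with log2 fold changes from adult of 2.08 (SE 0.067, adjusted p = 3.02e-22) and -0.99 (SE 0.11, adjusted p = 7.5e-10), while PTH stood at -0.02 (0.94). Without the scaling between libraries the aged change was -0.58 and still passed (adjusted p = 1.7e-05).

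In mpEC-like cells C1qtnf6 was at 130.0 and 133 CPM in the juvenile, 37.3 and 44.2 CPM in the adult, 22.8 and 26.6 CPM in the aged, 72.7 and 73.0 CPM in the PTH and 46.2 and 40.4 CPM in the alendronate libraries. The 3 ages again did not overlap, and the PTH pair lay between the juvenile and the adult one. C1qtnf6 was higher than adult in juvenile (1.69, SE 0.093, adjusted p = 2.14e-19) and PTH cells (0.84, SE 0.097, adjusted p = 3.76e-09) and lower in aged cells (-0.71, SE 0.12, adjusted p = 3.33e-06). Without the integration of libraries before clustering, which redraws the class, the aged value was 0.20 and did not pass.

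In aEC-like cells the juvenile libraries held 50.03 and 51.5 CPM of C1qtnf6, the adult 7.8 and 8.6 CPM, the aged 2.5 and 3.1 CPM, the PTH 20.5 and 14.8 CPM and the alendronate libraries 12.5 and 7.3 CPM. The juvenile pair was the highest (2.62, SE 0.28, adjusted p = 1.34e-08). With cells thinned to 1000 UMIs, 4.27% and 4.26% of juvenile aEC-like cells held a C1qtnf6 UMI, against 2.37% and 1.68% of juvenile blood-like cells, while the adult shares of 0.72% and 0.71% lay close to the 0.56% and 1.08% of the blood-like cells of the same libraries, above them in library 1 and below in library 2. The aged (-1.53, adjusted p = 0.00179) and PTH (1.01, 0.0215) calls in aEC-like cells therefore compare levels close to background, the share lying above that of blood-like cells in 6 of 10 libraries. The aged one turned to 0.81 without integration, a call in the other direction (adjusted p = 0.00859), and the PTH one was lost without adult library 1, adult library 2 or PTH library 1.

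In Timp4/Aqp7 rEC-like cells C1qtnf6 was low outside the juvenile group (2.9 to 16.6 CPM), and the juvenile libraries, at 27.7 and 101.9 CPM, rested on 11 UMIs in 80 cells. The juvenile change of 2.25 (SE 0.72, adjusted p = 0.0718) did not pass, and the aged one of -1.84 (SE 0.75, adjusted p = 0.0373) was lost without any single adult, aged or alendronate library. In Tagln/Vwf rEC-like cells no group passed. The juvenile libraries pooled both sexes, and in juvenile cells without a UMI of a Y-linked gene C1qtnf6 was at 147 CPM in bmEC-like and 121 CPM in mpEC-like cells, against 172 and 132 CPM in those with one.

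**Figure D3:**
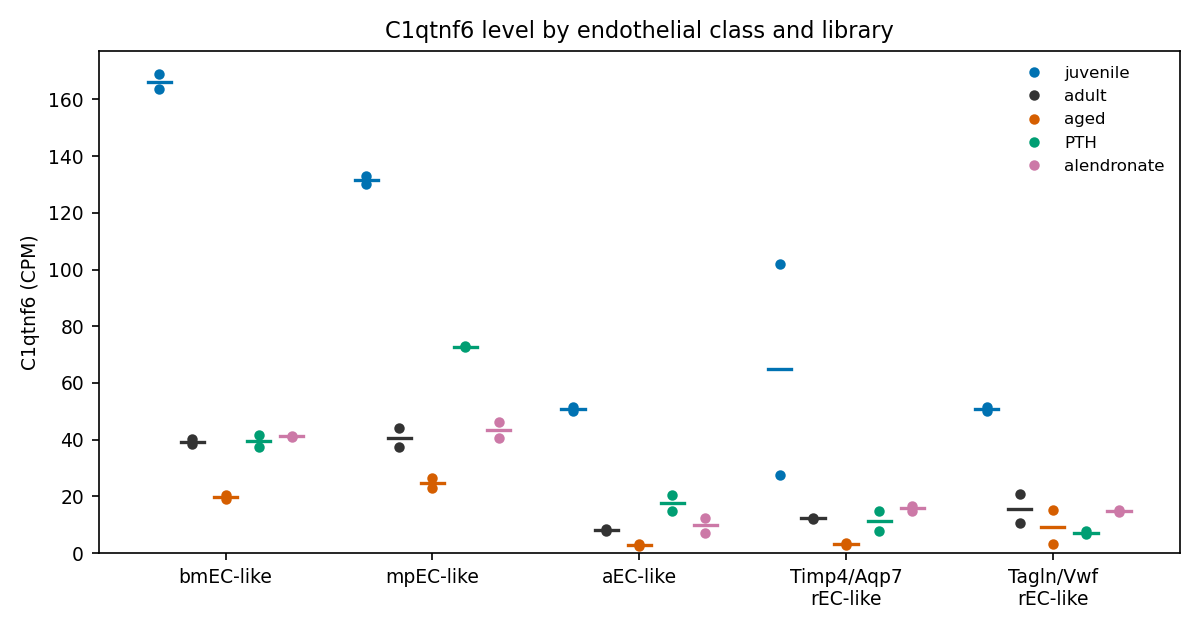
C1qtnf6 in CPM (linear axis from 0) for each EC class and library, points being libraries and lines group means. In bmEC-like and mpEC-like cells the juvenile libraries (130.0 to 169 CPM) lie above and the aged ones (19.1 to 26.6 CPM) below all others.

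Adipor1, the receptor gene, was detected in every EC class. Its level was 338 ± 96.6 CPM (SD, n = 10) in Timp4/Aqp7 rEC-like, 241 ± 75.0 CPM in Tagln/Vwf rEC-like, 218.5 ± 58.4 CPM in aEC-like, 184 ± 48.9 CPM in mpEC-like and 163 ± 43.2 CPM in bmEC-like cells. Against the mean of the other classes it was higher in Timp4/Aqp7 rEC-like (log2 difference 0.86, SE 0.054, adjusted p = 5.32e-21) and Tagln/Vwf rEC-like cells (0.30, SE 0.058, adjusted p = 2.37e-05). It was lower in bmEC-like (-0.32, SE 0.048, adjusted p = 2.44e-08) and mpEC-like cells (-0.25, SE 0.048, adjusted p = 2.03e-05), with 0.05 (adjusted p = 0.39) in aEC-like cells. The Timp4/Aqp7 class exceeded the Tagln/Vwf class (0.47, adjusted p = 2.67e-07), while bmEC-like and mpEC-like cells, the neighbours at the low end, did not pass (-0.07, adjusted p = 0.336). After thinning, 28.4 ± 7.72% of Timp4/Aqp7 rEC-like and 14.5 ± 2.95% of bmEC-like cells held an Adipor1 UMI, against 11.5 ± 2.90% of blood-like cells.

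Averaged over the 10 libraries, Adipor2, the second receptor gene, was higher in arterial and rEC-like cells than in sinusoidal and metaphyseal ones. It was at 121 ± 60.7 CPM (SD, n = 10) in Timp4/Aqp7 rEC-like, 104.3 ± 34.98 CPM in aEC-like and 99.6 ± 22.6 CPM in Tagln/Vwf rEC-like cells, and at 60.9 ± 20.5 CPM in mpEC-like and 58.7 ± 11.1 CPM in bmEC-like cells. The first 3 classes lay above the mean of the others (0.52, adjusted p = 2.87e-05; 0.48, 4.63e-07; 0.49, 0.000124) and the last pair below it (-0.42, 9.52e-06; -0.32, 0.000247). Among the first 3 classes no pair passed the test of its difference (adjusted p = 0.887, 0.986 and 0.922), nor did mpEC-like and bmEC-like cells (0.400). The gap of Timp4/Aqp7 rEC-like cells varied between libraries. With cells thinned to 1000 UMIs, 5.05% of them and 5.07% of bmEC-like cells held an Adipor2 UMI in adult library 2. These shares were 7.51% and 5.20% in adult library 1, and 6.19% and 5.35% in alendronate library 1. They were 18.4% and 4.62% in juvenile library 1, and 15.9% and 9.17% in aged library 1. Of the 15 tests of a class against the mean of the others for C1qtnf6, Adipor1 and Adipor2, 14 passed, where the background over all genes was 67.9% in bmEC-like, 42.3% in mpEC-like, 51.9% in aEC-like, 46.6% in Timp4/Aqp7 rEC-like and 39.3% in Tagln/Vwf rEC-like cells.

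Adipor1 and Adipor2 moved in opposite directions in aged ECs. In Timp4/Aqp7 rEC-like cells Adipor1 was at 470.4 and 255 CPM in the juvenile, 447 and 451 CPM in the adult, 226 and 192 CPM in the aged, 353 and 345 CPM in the PTH and 324 and 317 CPM in the alendronate libraries. The aged pair was the lowest, and the juvenile libraries, with 47 and 33 such cells, lay far apart. Adipor1 was lower in aged than in adult cells in all 5 classes, by log2 fold changes of -1.097 in bmEC-like (SE 0.059, adjusted p = 3.24e-17), -1.22 in mpEC-like (SE 0.070, 1.36e-19), -1.26 in aEC-like (SE 0.075, 6.61e-16), -1.09 in Timp4/Aqp7 rEC-like (SE 0.12, 1.47e-11) and -1.13 in Tagln/Vwf rEC-like cells (SE 0.18, 5.06e-06).

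In the other classes the aged Adipor1 levels were likewise the lowest. In bmEC-like cells they were 86.5 and 87.6 CPM against 181 and 192 CPM in the adult libraries, in mpEC-like cells 90.6 and 96.7 CPM against 216 and 223 CPM, and in aEC-like cells 111 and 113 CPM against 270.3 and 267 CPM. In Tagln/Vwf rEC-like cells they were 154 and 135 CPM against 250.4 and 386 CPM. Blood-like cells did not share the pattern: their levels were 152 and 139 CPM in the aged against 119 and 129 CPM in the adult libraries. The few mesenchymal cells left in the sort did share it, with lower Adipor1 in both aged than in both adult libraries (values under Other observations). Neither was tested. Blood-like and mesenchymal levels, here and below, lack the scaling between libraries that the EC levels carry. The thinned Adipor1 shares of aged bmEC-like, mpEC-like, aEC-like and Tagln/Vwf rEC-like cells (9.51% to 14.7%) lay below the 16.9% and 15.5% of aged blood-like cells, and those of aged Timp4/Aqp7 rEC-like cells (22.2% and 18.0%) above them.

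Adipor2 was higher in aged than in adult cells in all 5 classes. The log2 fold changes were 0.50 in bmEC-like (SE 0.076, adjusted p = 9.36e-07), 0.82 in mpEC-like (SE 0.092, 1.44e-10), 1.09 in aEC-like (SE 0.095, 1.03e-11), 1.19 in Timp4/Aqp7 rEC-like (SE 0.19, 2.95e-07) and 0.82 in Tagln/Vwf rEC-like cells (SE 0.25, 0.01), the last of which was lost without adult library 2 or aged library 2. The mpEC-like value fell to 0.51 and did not pass without integration (adjusted p = 0.225). In aEC-like cells Adipor2 stood at 161 and 158 CPM in the aged against 80.1 and 70.0 CPM in the adult libraries, and in Timp4/Aqp7 rEC-like cells at 158 and 179.8 CPM against 89.9 and 57.2 CPM. Unlike Adipor1, Adipor2 was also higher in aged blood-like cells, at 58.3 and 64.8 CPM against 32.2 and 32.4 CPM. The scaling between libraries lowered the aged log2 fold changes of all genes alike, by about 0.41 in bmEC-like, 0.21 in mpEC-like and 0.10 in aEC-like cells. Without it the aged values in bmEC-like cells were -0.69 for Adipor1 and 0.91 for Adipor2, in the same directions. How the gene names, mitochondrial share, cluster make-up, greater depth and few shared barcodes of the aged libraries bear on these values was not tested.

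Among juvenile cells Adipor1 passed in none of the 5 classes (-0.37 to 0.11). Adipor2 was higher in juvenile aEC-like cells, at 124 and 122 CPM (0.71, SE 0.13, adjusted p = 9.1e-05), and in juvenile Timp4/Aqp7 rEC-like cells, at 212 and 204 CPM against 89.9 and 57.2 CPM in the adult (1.48, SE 0.32, adjusted p = 0.00129). The latter call, which rests on 80 juvenile cells, was lost without juvenile library 1 (adjusted p = 0.133) and without the juvenile cells that held a UMI of a Y-linked gene (1.20, adjusted p = 0.0971). The juvenile libraries are the only ones with males.

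Under alendronate Adipor1 was lower in 4 of 5 classes, by small amounts. In bmEC-like cells it was at 154 and 156.5 CPM against 181 and 192 CPM in the adult libraries (-0.26, SE 0.049, adjusted p = 0.000181). The mpEC-like (-0.21, adjusted p = 0.0205), aEC-like (-0.25, 0.0179) and Timp4/Aqp7 rEC-like calls (-0.49, 0.00524) were each lost without adult library 1, adult library 2 or alendronate library 1. The aEC-like and Timp4/Aqp7 rEC-like calls were also lost without alendronate library 2. Blood-like cells were likewise lower, at 102 and 89.5 CPM under alendronate against 119 and 129 CPM in adult, with no test. Adipor2 passed in no class under alendronate. Under PTH Adipor1 passed in none (-0.40 to -0.04), and Adipor2 was lower in mpEC-like cells, the 1 call among the 5 classes, at 44.1 and 42.8 CPM against 59.8 and 50.5 CPM (-0.35, SE 0.098, adjusted p = 0.00793), a call lost without adult library 1 or PTH library 2.

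**Figure D4:**
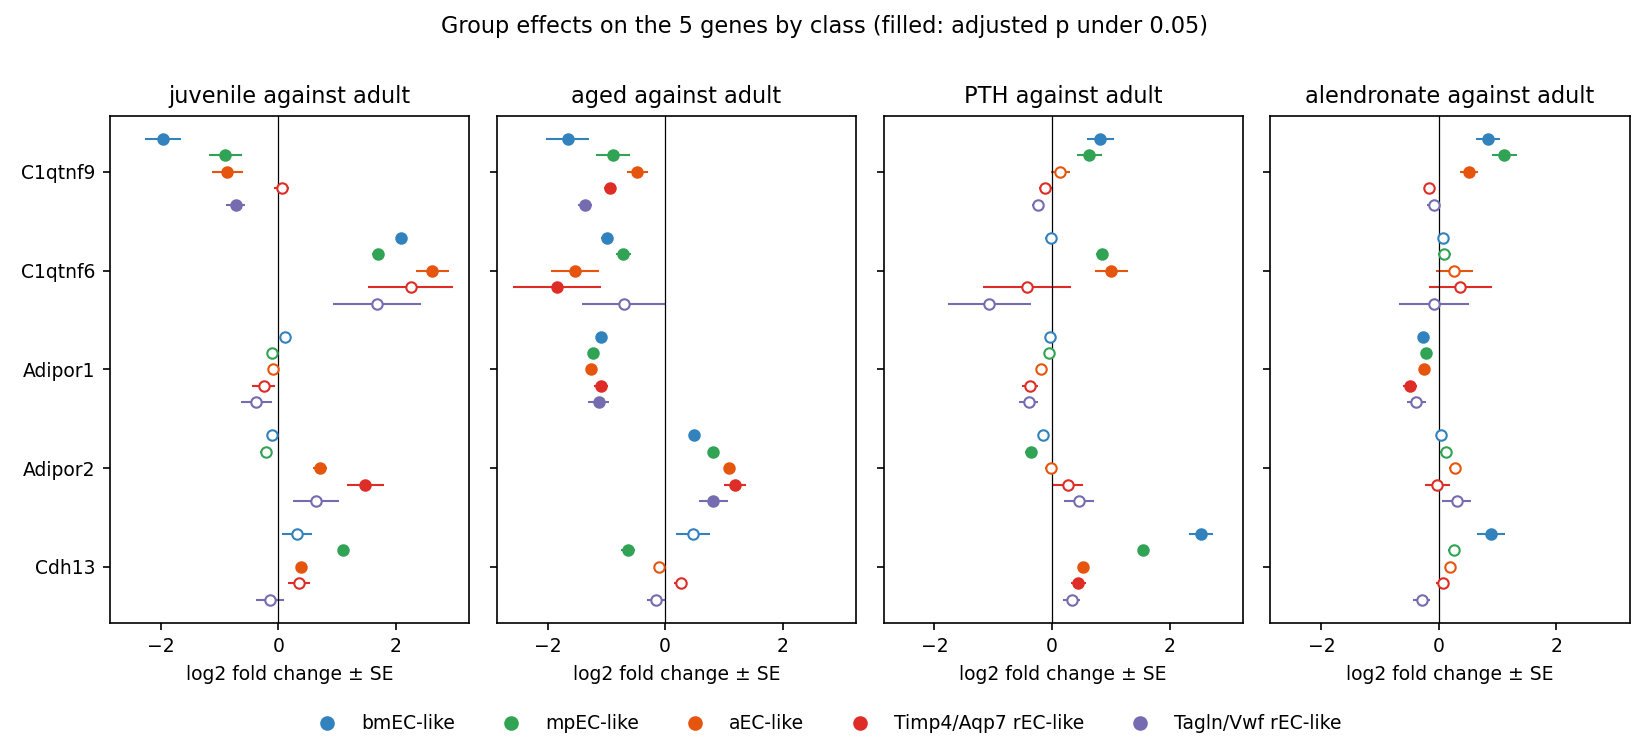
Log2 fold change against adult, with its SE as the bar, for the 5 genes in each EC class, 1 panel each for juvenile, aged, PTH and alendronate. Filled points have an adjusted p under 0.05; in the aged panel Adipor1 lies between -1.26 and -1.09 and Adipor2 between 0.50 and 1.19 in all 5 classes.

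Among the 5 classes tested Cdh13 was highest in Timp4/Aqp7 rEC-like cells, at 489 ± 67.6 CPM (SD, n = 10), followed by Tagln/Vwf rEC-like (317 ± 75.6 CPM), aEC-like (302 ± 54.3 CPM), mpEC-like (86.0 ± 48.1 CPM) and bmEC-like cells (8.3 ± 7.1 CPM). The levels of the middle pair overlapped within their spread. These are again a description without a test, since the study listed Cdh13 for a class. After thinning, 36.5 ± 4.50% of Timp4/Aqp7 rEC-like, 25.6 ± 4.47% of Tagln/Vwf rEC-like, 24.6 ± 4.12% of aEC-like and 7.53 ± 4.30% of mpEC-like cells held a Cdh13 UMI. In bmEC-like cells the share of 0.83 ± 0.65% lay under the 1.41 ± 0.66% of blood-like cells, above it in 1 of 10 libraries only, and is read as background.

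Cdh13 was higher under PTH in metaphyseal and arterial cells. In mpEC-like cells it was at 115 and 117 CPM in the juvenile, 54.3 and 54.4 CPM in the adult, 40.1 and 30.2 CPM in the aged, 159 and 159.5 CPM in the PTH and 70.7 and 59.3 CPM in the alendronate libraries. The PTH pair lay above every other library and the juvenile pair above the rest. Cdh13 was higher under PTH by a log2 fold change of 1.55 over adult (SE 0.085, adjusted p = 5.98e-19), and juvenile cells exceeded adult ones by 1.098 (SE 0.090, adjusted p = 1.43e-13). The thinned share of mpEC-like cells with a Cdh13 UMI was 14.0% and 14.9% under PTH against 5.25% and 4.63% in adult libraries, both above the blood-like cells' 1.77% and 2.41% under PTH and 0.65% and 0.42% in adult.

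In aEC-like cells Cdh13 was at 366 and 318 CPM in the juvenile, 270.3 and 248 CPM in the adult, 247 and 233 CPM in the aged, 369 and 379 CPM in the PTH and 287 and 302 CPM in the alendronate libraries. The PTH pair was again the highest (0.53, SE 0.070, adjusted p = 1.52e-06), and the juvenile change of 0.39 (SE 0.084, adjusted p = 0.000905) was lost without juvenile library 1. In Timp4/Aqp7 rEC-like cells the PTH libraries, at 601 and 554 CPM, stood above the adult ones, at 403 and 424.5 CPM, but that call (0.45, SE 0.13, adjusted p = 0.0366) was lost without any single adult, PTH or alendronate library. In Tagln/Vwf rEC-like cells the PTH change of 0.33 (adjusted p = 0.467) did not pass.

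In bmEC-like cells the tests called Cdh13 higher under PTH, at 21.8 and 21.2 CPM against 3.9 and 3.5 CPM (2.53, SE 0.20, adjusted p = 5.93e-11), and under alendronate, at 7.2 and 6.5 CPM (0.89, adjusted p = 0.00741, lost without adult library 2 or alendronate library 1). The thinned shares under PTH, 1.98% and 2.05%, lay near those of PTH blood-like cells, and the values are not read as expression. Aged mpEC-like cells had less Cdh13 than adult ones (-0.63, SE 0.11, adjusted p = 4.23e-06), which became 0.16 without integration. Over all ECs Cdh13 was higher than adult under PTH (1.44, SE 0.043, adjusted p = 6.42e-16), under alendronate (0.84, SE 0.043, adjusted p = 5.19e-12) and in the aged (0.71, SE 0.045, adjusted p = 2.89e-12). It did not pass in aged Timp4/Aqp7 rEC-like (0.26, adjusted p = 0.0516), Tagln/Vwf rEC-like (-0.15) or aEC-like cells (-0.11), the classes where it was highest. Under alendronate Cdh13 passed in 1 of 5 classes only, the bmEC-like one, with changes of -0.29 to 0.89 over the classes. Both rEC-like classes together supplied 40.6% and 39.0% of the endothelial Cdh13 UMIs under alendronate, against 22.4% and 24.7% in adult. The level over all ECs thus moves with the shares of the classes too, and their part was not tested.

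**Figure D5:**
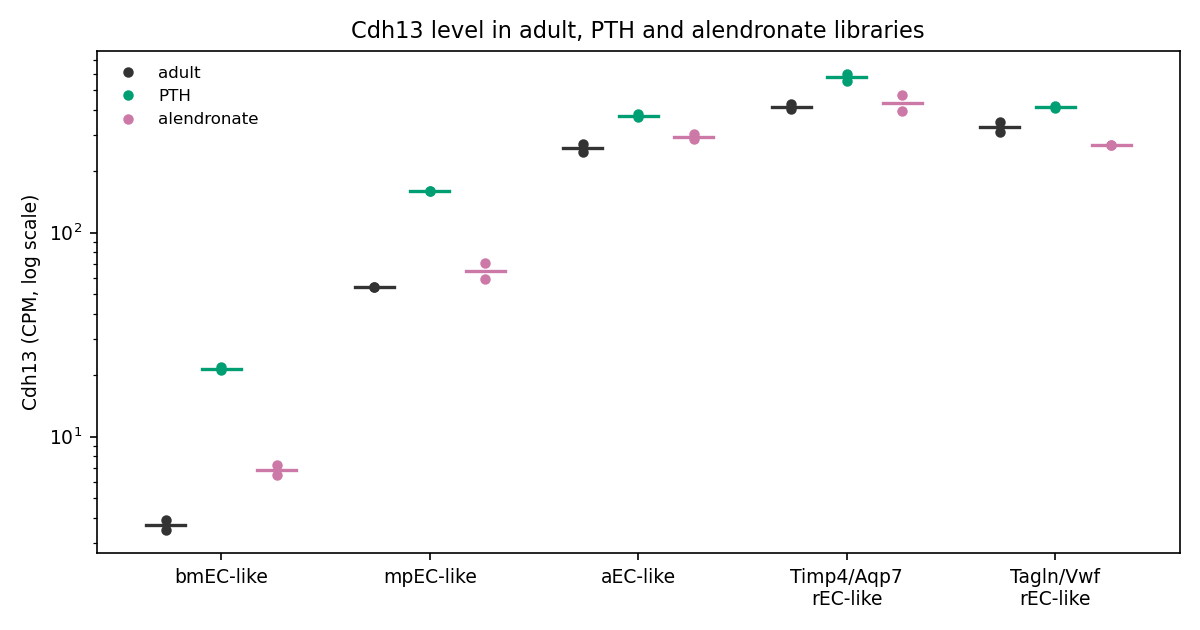
Cdh13 in CPM (logarithmic axis) by EC class in the adult, PTH and alendronate libraries, points being libraries and lines group means. The PTH libraries lie above the adult ones in each class, by the widest margin on this axis in bmEC-like cells, where the level is at background, and in mpEC-like cells (159 and 159.5 against 54.3 and 54.4 CPM).

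Whether a group's effect in Timp4/Aqp7 rEC-like cells differed from that in bmEC-like, mpEC-like or aEC-like cells was tested with an interaction term. Of 60 such tests 12 passed, against a background over all genes of 1.73%, 1.81% and 0.717% for juvenile, 8.47%, 3.79% and 3.11% for aged, 1.19%, 1.64% and 0.709% for PTH and 0.926%, 1.19% and 0.911% for alendronate. The count includes differences from levels that are read as background. These are C1qtnf9 against bmEC-like and mpEC-like cells and Cdh13 under PTH against bmEC-like cells. Other calls hung on single libraries or on the integration, as given here and further below. The effect of PTH on Cdh13 was smaller in Timp4/Aqp7 rEC-like than in mpEC-like cells (difference of log2 fold changes -1.11, SE 0.142, adjusted p = 3.07e-09). For Cdh13 in aged cells the value of 0.26 in Timp4/Aqp7 rEC-like cells, which did not pass on its own, differed from the -0.63 of mpEC-like cells (0.82, SE 0.151, adjusted p = 3.61e-05), and this difference became -0.06 without integration. The juvenile change of Adipor2, 1.48 in Timp4/Aqp7 rEC-like cells, differed from the -0.10 of bmEC-like (difference 1.51, SE 0.304, adjusted p = 0.000429) and the -0.21 of mpEC-like cells (1.601, SE 0.311, adjusted p = 0.000223), and both were lost without juvenile library 1. For Adipor1 in aged cells none of the 3 differences passed (-0.13, 0.06 and 0.11), nor did those of Adipor2 (0.56, 0.30 and 0.04), which does not show that the effects were alike.

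Further genes of the pathway were counted by lists over the 5 classes. Of the C1q/TNF family and its collagen and emilin relatives, 24 of 29 names were in the tables (Fam132a and Fam132b are in the list under a newer name too, which the tables do not use), and of 40 tests 9 were higher and 9 lower in juvenile cells (45%), 4 higher and 19 lower in aged (57.5%), 4 and 5 under PTH (22.5%) and 1 and 5 under alendronate (15%). The shares of all genes, pooled over the 5 classes as given above, were 20%, 56.2%, 8.28% and 9.65%, so that the aged share of the family was near that of all genes. In aged bmEC-like cells 3 of 14 tested were higher and 5 lower. In aged mpEC-like cells, where 65.9% of all genes passed, 7 of 10 tested were lower and none higher. The median log2 fold change of the 10 was -0.97 against 0.01 for all genes. Among them C1qtnf1, for the secreted protein CTRP1, was at a log2 fold change of -1.58 (SE 0.17, adjusted p = 4.5e-11). Mmrn1, for a multimerin stored in platelets and endothelium, was higher in aged bmEC-like cells (0.72, adjusted p = 9.2e-14). Without integration the aged C1qtnf6 and Cdh13 values of mpEC-like cells reversed. Calls over all lists, classes and groups then fell from 140 to 110. C1qtnf1 was higher in juvenile mpEC-like cells (0.84, SE 0.12, adjusted p = 1.3e-07), and Mmrn1 was lower in mpEC-like cells under PTH (-0.74, adjusted p = 2.4e-06) and alendronate (-0.50, adjusted p = 0.0031). Fam132a, for the adipolin protein CTRP12, was lower in aged Timp4/Aqp7 rEC-like cells (-1.88, SE 0.44, adjusted p = 0.00025). Of the other PAQR receptors, 8 of 9 were in the tables, and of 18 tests 2 passed for juvenile (11.1%), 9 for aged (50%), and 0 for PTH and alendronate, each below the share of all genes. Mmd, a PAQR gene named for the maturation of monocytes to macrophages, was higher in juvenile (1.00, SE 0.21, adjusted p = 0.00086) and lower in aged aEC-like cells (-1.72, SE 0.24, adjusted p = 1.5e-07).

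Of the adaptors, AMPK subunits and upstream kinases, 14 of 15 were in the tables, and of 61 tests 19 were higher and 12 lower in aged cells (50.8%), below the 56.2% of all genes. Cab39, which activates the kinase upstream of AMPK, was higher in aged Timp4/Aqp7 rEC-like cells (1.31, SE 0.24, adjusted p = 4.7e-06), and so was Appl1, the adiponectin receptor adaptor, in Tagln/Vwf rEC-like cells (1.02, adjusted p = 0.014). Prkag1, a regulatory subunit of AMPK, was lower in Tagln/Vwf rEC-like cells (-1.27, SE 0.29, adjusted p = 0.00067). The other groups gave 3 calls for juvenile (4.92%), 1 for PTH (1.64%) and 3 for alendronate (4.92%), each below the 20%, 8.28% and 9.65% of all genes.

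Of 9 target genes downstream, all of them in the tables, 20 of 34 tests were higher and none lower in aged cells (58.8%), a share near that of all genes. The median log2 fold change in aged aEC-like cells was 0.59 against -0.02 for all genes. Acacb, which restrains fatty acid oxidation when AMPK is inactive, was higher in aged Timp4/Aqp7 rEC-like cells (1.43, SE 0.37, adjusted p = 0.00099). Nos3, for endothelial nitric oxide synthase, was higher in aged mpEC-like cells (0.53, SE 0.11, adjusted p = 4.2e-05), the class whose aged C1qtnf6 and Cdh13 values reversed without integration. In juvenile cells 3 were lower (8.82%), and PTH and alendronate each gave 1 lower call (2.94%), each below the 20%, 8.28% and 9.65% of all genes. Of the other cadherins, 6 of 7 were in the tables, with 3 of 9 tests called for juvenile (33.3%), 4 for aged (44.4%), 3 for PTH (33.3%) and 0 for alendronate, against 20%, 56.2%, 8.28% and 9.65% of all genes. Cdh5 was higher in aEC-like cells under PTH by 0.22 (adjusted p = 0.0045), a smaller change than the 0.53 of Cdh13 there. In juvenile aEC-like cells Cdh5 was higher by 0.51 (SE 0.053, adjusted p = 6.5e-09), a larger change than that of Cdh13. The differences between these genes were not tested.

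Over the 58 sums of a class in a library, the genes whose levels followed C1qtnf9 most closely on the log2(CPM + 1) scale were Pdlim1 (Pearson's r = 0.963), Meox2 (0.960), which is also among the markers that name the class, Tppp3 (0.948), Cst3 (0.946) and Tspan13 (0.944). Cdh13 was most like S100a6 (0.965), Sparcl1 (0.955) and Prnp (0.951), and C1qtnf6 most like Igfbp2 (0.894), Mdfi (0.869) and Tmsb10 (0.854). Among the 5 genes r was 0.771 between C1qtnf9 and Cdh13, -0.556 between C1qtnf6 and C1qtnf9 and 0.098 between Adipor1 and Adipor2. The sums share libraries and classes, so these are descriptions without a test.

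Markers of other cell types were summed in the rEC-like classes. In both of them 6 myofibre markers summed to 0 to 42.8 CPM per library and 5 adipocyte markers to 0 to 47.2 CPM, with Plin1, a coat protein of fat droplets, at 0. Mesenchymal markers summed to 0 to 40.9 CPM in Timp4/Aqp7 rEC-like and 147 to 431 CPM in Tagln/Vwf rEC-like cells, highest in the aged libraries. These markers include Lepr, which is among the most enriched genes of a Tagln/Vwf rEC-like cluster of 338 cells. The sum is therefore no measure of mesenchymal RNA alone. The Fmo2-led markers of the Tagln/Vwf class summed to 626 to 836 CPM in aged Timp4/Aqp7 rEC-like cells against 233 to 234 CPM in adult ones. The part of these in the lower C1qtnf9 of aged rEC-like cells was not tested.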

How the data were processed

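Per the labels and the study's methods, the authors extracted cell barcodes and UMIs with UMI-tools 1.1.2, aligned reads to mm10 with STAR 2.7.10a, assigned them to genes with Subread featureCounts 2.0.3 and deposited 1 table of raw UMI counts per library. The annotation release, the strand setting, the 10x kit version of each library and whether the adult libraries come from the PBS-injected controls of the drug treatments are not given in the sources used here. The counts were used as deposited. Cells with 500 to 6000 genes and under 25% mitochondrial UMIs were kept, and the 10 libraries were integrated by reciprocal PCA in Seurat 5.3.0 with 2000 variable features that held none of the 5 genes, and were clustered on 30 principal components at a resolution of 0.5. The cluster richest in Vwf and Fmo2 was divided again at 0.3. Clusters were named "X-like" from marker genes, and 516 cells stayed unnamed. Doublets called by Scrublet (scanpy 1.11.5, 0.8% per 1000 cells) were kept, and taking them out was an alternative.

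UMI counts were summed per class and library (at least 20 cells) and tested with the quasi-likelihood test of edgeR 4.0.16 in R 4.3.3, with all 5 groups in 1 fit, TMM factors, the default filter on low counts and Benjamini-Hochberg adjustment over all genes, and were called at an adjusted p under 0.05. DESeq2 1.42.0 was an alternative. The tests were tested on simulated data. CPM are UMIs per 1000000 of the sum, scaled by its TMM factor within a class. Those of blood-like, mesenchymal and lymphatic-like cells, of single clusters, of marker genes and of cells split by a Y-linked UMI were not scaled. Likeness was computed over genes with a mean of at least 20 CPM. Shares of cells were taken after thinning each cell to 1000 UMIs (scipy 1.17.1, Python 3.11.15), and figures were drawn with matplotlib 3.10.9. Totals of 10653583 to 28419323 UMIs per library limit the low classes: a sum of 20 to 50 cells holds few UMIs of a rare transcript.

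The members, gene lists and tests were chosen with earlier results of these data known. Beside the 5 genes, the text names at most 4 called genes of each list, those with the largest change and a mean of at least 20 CPM, the 5 genes most like C1qtnf9 and the 3 most like Cdh13 and C1qtnf6, and marker genes. Proliferating and lymphatic-like ECs had too few cells in the aged libraries for all contrasts. One result that this rule would name is not reported here.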

Additional observations from a re-analysis of the deposited data

Results flagged for a closer look

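For 12 of 60 comparisons the effect of a group against adult differed between Timp4/Aqp7 rEC-like cells and another class by an interaction term (edgeR's quasi-likelihood test with Benjamini-Hochberg adjustment). Values are differences of log2 fold changes, Timp4/Aqp7 rEC-like minus the other class.

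For Adipor2 in juvenile cells the difference was 1.51 from bmEC-like (SE 0.304, adjusted p = 0.000429, effects of 1.48 and -0.10) and 1.601 from mpEC-like cells (SE 0.311, adjusted p = 0.000223, effects of 1.48 and -0.21). For Cdh13 in juvenile cells it was -0.84 from mpEC-like cells (SE 0.188, adjusted p = 0.00252, effects of 0.35 and 1.098). All 3 were lost without juvenile library 1 (adjusted p = 0.122, 0.0768 and 0.0941). For Cdh13 in aged cells it was 0.82 from mpEC-like cells (SE 0.151, adjusted p = 3.61e-05, effects of 0.26 and -0.63).

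For Cdh13 under PTH the difference was -2.09 from bmEC-like (SE 0.22, adjusted p = 1.61e-12, effects of 0.45 and 2.53) and -1.11 from mpEC-like cells (SE 0.142, adjusted p = 3.07e-09, effects of 0.45 and 1.55). The Cdh13 of bmEC-like cells was at the level of blood-like cells, so the first of these is not read as a difference in expression.

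For C1qtnf9 the difference from bmEC-like cells was 1.92 in juvenile cells (SE 0.325, adjusted p = 1.05e-05, effects of 0.06 and -1.96), -0.94 under PTH (SE 0.237, adjusted p = 0.0141, effects of -0.11 and 0.82) and -0.96 under alendronate (SE 0.209, adjusted p = 0.00233, effects of -0.16 and 0.84). From mpEC-like cells it was -0.75 under PTH (SE 0.215, adjusted p = 0.0418) and -1.21 under alendronate (SE 0.212, adjusted p = 2.81e-05), and from aEC-like cells -0.64 under alendronate (SE 0.154, adjusted p = 0.0108). The C1qtnf9 share of bmEC-like cells lay above that of blood-like cells in 5 of 10 libraries and that of mpEC-like cells in 7. The excess was at most 0.485 and 0.868 percentage points, and both are read as background. How RNA released from rEC-like cells bears on these differences was not tested. Under PTH the bmEC-like one was lost without adult library 1 or PTH library 2 and the mpEC-like one without any single adult or PTH library. Under alendronate they were lost without adult library 1 or alendronate library 2 (bmEC-like), alendronate library 1 (mpEC-like) and adult library 2 or alendronate library 2 (aEC-like). With doublets removed, the aEC-like one under alendronate (-0.47, adjusted p = 0.268) and the bmEC-like one under PTH (-0.86, adjusted p = 0.102) were also lost.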

How the results depend on the processing

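Of 1901 values of single genes recomputed under the alternatives, 1769 kept their direction and side of the threshold, 124 were no longer called and 8 reversed. They stem from 93 values that were called in the main fit or are those of C1qtnf9 in the rEC-like classes. Many alternatives left out a library of a group outside the comparison, which can change such a value little, so the count is no general measure of robustness. Without integration the aged values became 0.20 for C1qtnf6 and 0.16 for Cdh13 in mpEC-like cells, 0.81 for C1qtnf6 in aEC-like cells, called in the other direction, and -0.0558 for the Cdh13 difference of Timp4/Aqp7 rEC-like minus mpEC-like cells; the cause was not tested. The juvenile C1qtnf9 value of Timp4/Aqp7 rEC-like cells, which was not called, became -0.0352 without a filter on low counts and ranged from -0.0467 to 0.0742 without single libraries. Calls of the 5 genes in 5 classes numbered 9 for PTH but 4 with DESeq2, 5 without integration and 4 to 9 without 1 library (4 without adult library 1), and 8 for alendronate but 2 with DESeq2 and 3 to 8 without 1 library (3 without adult library 1, adult library 2 or alendronate library 1). For juvenile they ranged from 9 to 13 and for aged from 17 to 21. Stricter cell filters left 1858 of 2887 Timp4/Aqp7 rEC-like cells. Thinning to 2000 UMIs, or none, gave shares there of 79.4% or 79.7% for C1qtnf9, 48.7% or 50.9% for Adipor1, 19.1% or 24.96% for Adipor2 and 58.2% or 59.8% for Cdh13, and none gave 4.51% for C1qtnf6. The replicate numbers did not pair the samples (correlations of same-numbered deviations -0.01 to 0.05), and a replicate block left 11, 20, 9 and 8 calls for juvenile, aged, PTH and alendronate. Depth limits C1qtnf6 in rEC-like cells: the juvenile libraries held 11 UMIs in 80 Timp4/Aqp7 rEC-like cells and the aged 7 in 624.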

Other observations

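Cdh13 was also high in lymphatic-like ECs. The 1 library with at least 20 of these cells, PTH library 2 with 43, held 155 Cdh13 UMIs or 657 CPM, and the same cells held 28 C1qtnf9 UMIs or 119 CPM. With 1 library this was not tested.

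Mesenchymal cells, a non-endothelial remainder of the sort, held Adipoq at 808 CPM, against at most 4 CPM in EC classes. Their Adipor1 was at 79.8 and 56.4 CPM in the aged against 154 and 163 CPM in the adult libraries, and their C1qtnf6 at 7.3 and 8.1 CPM against 59.1 and 47.4 CPM. The class held only 408 cells of 2 clusters over all 10 libraries. These levels lack the scaling between libraries, and the differences were not tested.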
